A study of Mus musculus with 9 samples.

Results

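The genes examined are 8 regulators of the antioxidant and heme response in HT22 cells, an immortalised mouse hippocampal neuronal line. They are the transcription factors Nfe2l2 (NRF2), Nfe2l1 and Bach1, the small MAF factors Mafg, Maff and Mafk, and Keap1 and Cul3, which encode the adaptor and the scaffold of the ubiquitin ligase that marks NRF2 for destruction. They were chosen by gene name from a table of 29756 entries, which holds each of the 8 once, and targets of these factors are not among them. RNA was sequenced in 9 libraries, 3 each labelled control, experimental and intervention. Hemin (heme with ferric iron) and the micelle PPP8 appear in the title of the series. Because no label assigns either agent, a dose or a time to a group, the groups keep their labels. All groups are the same cell line with no labelled genetic change. Nothing in the labels says that replicates are separate cultures, so each p-value reflects the spread among libraries alone, and that spread may be technical.

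NRF2 protein is made continuously, and KEAP1 bound to CUL3 keeps its level low. Oxidants and electrophiles modify KEAP1, after which NRF2 escapes, enters the nucleus and binds antioxidant response elements as a pair with a small MAF protein. BACH1 pairs with the same small MAFs, represses many of the same genes, Hmox1 among them, and leaves DNA and is degraded when it binds heme. NFE2L1, a relative of NRF2 held in the endoplasmic reticulum, raises proteasome subunit genes when the proteasome falls short. Much of this control acts on protein, whereas RNA alone was measured here.

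Values are FPKM (fragments per kilobase of gene and per 1000000 mapped), which scales for gene length. How reads were assigned to genes is not given, so levels are compared between genes only as FPKM. Differences are in log2(FPKM + 1) and each is tested with limma over all 11974 genes that reached 1 FPKM in at least 3 libraries. A gene counts as changed at a Benjamini-Hochberg adjusted p under 0.05. All 8 regulators passed that filter. On this scale the change of a gene with a low level is understated. In bulk RNA, fewer cells of a type and less RNA per cell cannot be told apart.

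FPKM summed to between 316912 and 339943 per library. The reference genes were not level: Actb had 602 to 679 FPKM in control, 369 to 384 in experimental and 371 to 416 in intervention libraries, and Gapdh 10.8 to 16.1, 9.18 to 9.98 and 8.75 to 9.53. Of 13 neuron markers, Tubb3 and Eno2 alone passed the filter on FPKM, and Rbfox3 and Dcx averaged 0.0622 and 0.010 FPKM, so these defining neuronal markers were near 0 in the labelled hippocampal line. Snap25, a synaptic gene, was 0.020 FPKM in intervention replicate 3 and 0.36 to 1.05 in the other libraries, and that library was lowest in the summed neuron markers (9.42 FPKM). Low values there were not limited to synaptic genes. Mbp, an oligodendrocyte marker, was 0.03 FPKM there and 0.30 to 0.92 elsewhere. Slc1a2, an astrocyte marker, was 0.11 there and 0.31 to 0.77 elsewhere. Tubb3 and Slc1a3 were not lowest in that library. Summed markers of microglia were 9.83 to 11.3 FPKM in control, 1.01 to 1.40 in experimental and 1.45 to 2.22 in intervention libraries, carried by Tmem119, while Ptprc, Itgam, Cx3cr1, Csf1r and Aif1 averaged under 0.1 FPKM. Summed astrocyte markers were 5.79 to 7.04 FPKM in control, 2.63 to 2.95 in experimental and 2.32 to 3.94 in intervention libraries, carried by Slc1a3, and the other astrocyte markers each averaged at most 0.387 FPKM. Among neuron markers, Eno2 was 4.77 to 6 FPKM in control, 1.99 to 2.03 in experimental and 1.81 to 2.04 in intervention libraries. Tubb3 did not share that fall, at 5.69 to 8.12, 8.32 to 8.46 and 5.88 to 7.43 FPKM in the same order. Summed neuron markers were 12.77 to 18.01, 12.66 to 12.72 and 9.42 to 11.41 FPKM. The 7 oligodendrocyte and endothelial markers summed to at most 1.78 FPKM in any library. The part of these markers in the results was not tested.

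In control cells Nfe2l1 had the highest FPKM of the regulators, at 66.2 ± 3.65 (SD, n = 3, as for all group values). Cul3 followed at 36.3 ± 1.27 FPKM. Nfe2l2 (25.6 ± 0.705 FPKM) and Mafg (25.5 ± 1.79 FPKM) came next and their libraries overlapped. Keap1 stood at 17.5 ± 0.368 FPKM, below both. Gapdh, at 10.8 to 16.1 FPKM in control libraries, read lower than Keap1, and the reason was not tested. Bach1 (8.10 ± 0.515 FPKM) and Mafk (7.97 ± 0.405 FPKM) overlapped, and Maff was lowest at 5.85 ± 0.512 FPKM. In experimental cells the order was Nfe2l1, Mafg, Nfe2l2, Cul3, Mafk, Keap1, Bach1 and Maff, and libraries overlapped between Nfe2l2 and Cul3 and among Keap1, Bach1 and Maff. Intervention cells had the order Nfe2l1, Mafg, Cul3, Nfe2l2, Keap1, Mafk, Bach1 and Maff, with overlap between Mafk and Bach1 and between Bach1 and Maff.

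**Figure D1:**
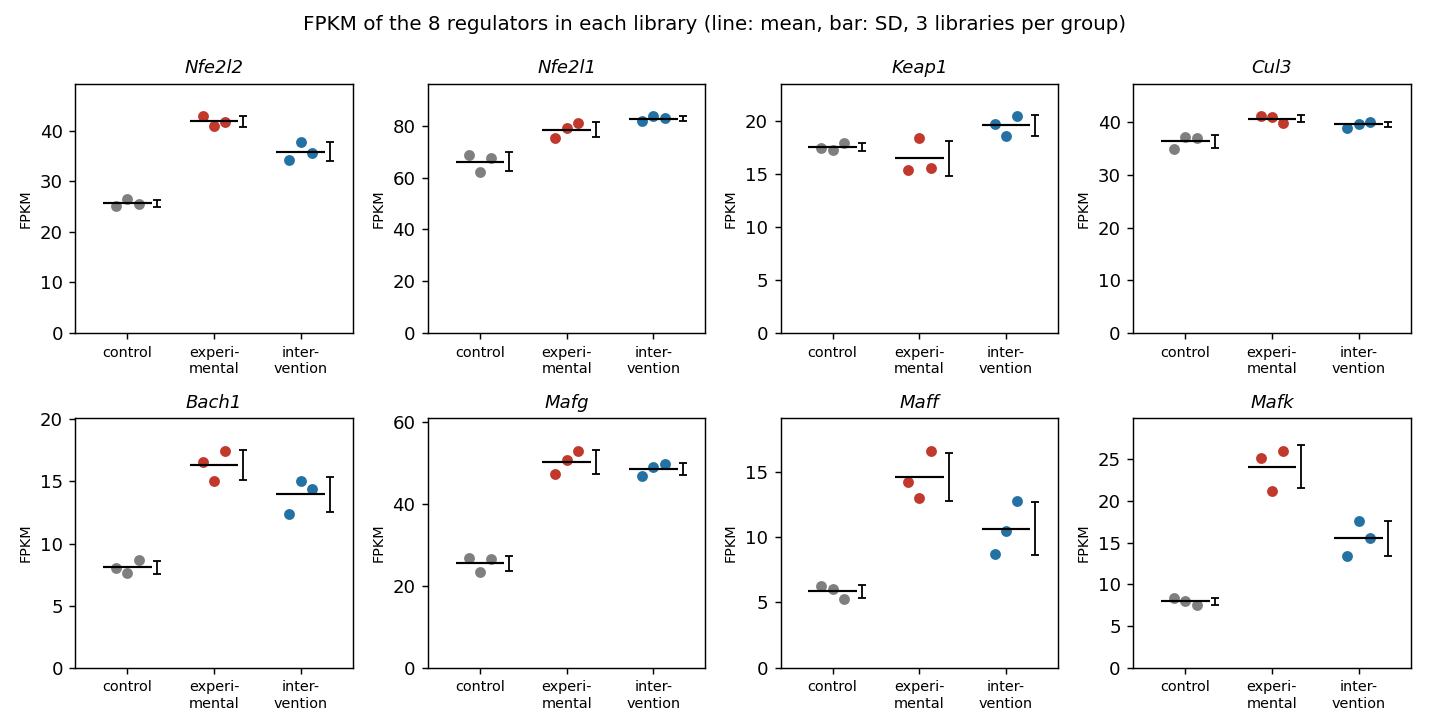
FPKM of each regulator (vertical axes, each from 0) in the 3 control, 3 experimental and 3 intervention libraries (points), with the group mean (line) and SD (bar beside it). All 3 experimental and all 3 intervention values of Nfe2l2, Bach1, Mafg, Maff and Mafk lie above the 3 control values, while the experimental values of Keap1 span its control values.

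The first comparison set the experimental against the control group. Experimental cells held more RNA of 7 of the 8 regulators, from 1.12 times the control level for Cul3 to 3.03 times for Mafk, and Keap1 did not pass the test. None of the 8 was called lower. Across all genes tested, 74.0% were called, 23.5% as higher and 50.5% as lower. The libraries of the 2 groups did not overlap for 7 regulators, nor for 76.2% of all genes. The median difference was 0.81 log2 units for the 8 regulators and -0.21 for all genes. Relative to the median gene, Keap1 stood at 0.12, Bach1 at 1.14, Mafg at 1.16, Maff at 1.39 and Mafk at 1.69 log2 units.

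Among the activators, Nfe2l2 read 25.03, 26.41 and 25.47 FPKM in the control libraries and 42.85, 40.82 and 41.79 in the experimental libraries. The groups did not overlap and the ratio of means was 1.63. Its log2 difference was 0.68 (SE 0.050, limma adjusted p = 1.02e-06), or 0.89 above the median gene. Nfe2l1 read 68.8, 62.1 and 67.8 FPKM in controls and 75.5, 79.3 and 81.0 in experimental libraries. It rose by less, 1.19 times, with a log2 difference of 0.24 (SE 0.051, limma adjusted p = 0.00144), or 0.45 above the median gene. The difference was 0.49 with median-ratio scaling. It was smaller, 0.19, with quantile normalization (limma adjusted p = 0.0179) and 0.18 with FPKM scaled to TPM (0.0183).

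Bach1, the heme-sensing repressor, also rose. Its control libraries read 8.02, 7.63 and 8.65 FPKM and its experimental libraries 16.6, 15.1 and 17.5, with no overlap. The ratio of means was 2.02 and the log2 difference 0.93 (SE 0.080, limma adjusted p = 3.11e-06). Thus the RNA of the repressor and of the activator Nfe2l2 rose in the same libraries, and Bach1 by the larger factor. The FPKM of Nfe2l2 was 3.18 ± 0.263 times that of Bach1 in controls and 2.56 ± 0.159 times in experimental libraries. These ratios within a library do not depend on scaling between libraries. They did not overlap between the groups, and the 2-sided exact permutation test gave 0.10, the smallest p that 3 against 3 libraries allow (0.164 adjusted over 18 such tests).

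The small MAFs are short proteins with a DNA-binding zipper and no activation domain, and the partner decides whether a pair activates or represses. All 3 rose. Mafk read 8.38, 7.97 and 7.57 FPKM in controls and 25.1, 21.3 and 26.0 in experimental libraries, the largest change of the 8 regulators (log2 difference 1.48, SE 0.10, limma adjusted p = 6.49e-07). Of all genes tested, 0.977% had a larger positive difference. Maff read 6.25, 6.02 and 5.27 FPKM in controls and 14.20, 13.01 and 16.61 in experimental libraries, 2.50 times the control mean (log2 difference 1.18, SE 0.12, limma adjusted p = 1.22e-05). Mafg went from 26.7, 23.5 and 26.4 FPKM to 47.2, 50.6 and 52.9, or 1.97 times (log2 difference 0.95, SE 0.062, limma adjusted p = 5.50e-07). None of the 3 overlapped its control libraries. Mafg shares exonic sequence on the same strand with Sirt7 (3.21 to 4.29 FPKM), and Mafk on the opposite strand with Tmem184a (0.11 to 0.33 FPKM). Reads from the sequence that Mafg shares with Sirt7 cannot be told apart by strand. The use of strand in counting was not stated, so reads of genes that overlap on opposite strands may not be told apart either.

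Summed over the 3 genes, small MAF RNA was 39.3 ± 1.93 FPKM in controls and 89.0 ± 5.73 in experimental libraries. The mix shifted as well. Mafg made up 64.8% ± 2.34 of the sum in controls and 56.5% ± 2.71 in experimental libraries, while Mafk went from 20.29% ± 1.003 to 27.10% ± 1.999. Neither share overlapped between the groups (exact permutation p = 0.10 for both, the smallest possible, 0.164 adjusted). Maff held 14.9% ± 1.35 and 16.4% ± 1.03, with overlapping libraries (exact permutation p = 0.20).

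Of the ligase genes, Cul3 was called higher and Keap1 was not called. Keap1 read 17.4, 17.2 and 18.0 FPKM in controls and 15.4, 18.4 and 15.6 in experimental libraries, where replicate 2 lay above all controls and the others lay below them. Its log2 difference was -0.09 (95% interval -0.24 to 0.06, limma adjusted p = 0.262). That sign turned to 0.15 with median-ratio scaling (adjusted p = 0.0493) and to 0.042 with quantile normalization (0.580), and without experimental replicate 2 the value was -0.17 (0.0237). Gm16754, transcribed antisense to Keap1 and sharing exonic sequence with it, had 0.49 to 2.17 FPKM. Cul3 read 34.9, 37.2 and 36.9 FPKM in controls and 41.1, 40.9 and 39.8 in experimental libraries, which did not overlap. Its log2 difference of 0.16 (SE 0.043, limma adjusted p = 0.00724) lay 0.37 above the median gene. It was 0.40 with median-ratio scaling (adjusted p = 2.64e-05) and lost its call with FPKM scaled to TPM (0.10, adjusted p = 0.0614). CUL3 serves many adaptors besides KEAP1. The Nfe2l2 to Keap1 ratio was 1.46 ± 0.0609 in controls and 2.56 ± 0.298 in experimental libraries, without overlap (exact permutation p = 0.10, 0.164 adjusted). Against its relative Nfe2l1, the Nfe2l2 ratio went from 0.388 ± 0.0329 to 0.533 ± 0.0304, also without overlap (exact permutation p = 0.10, 0.164 adjusted).

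**Figure D2:**
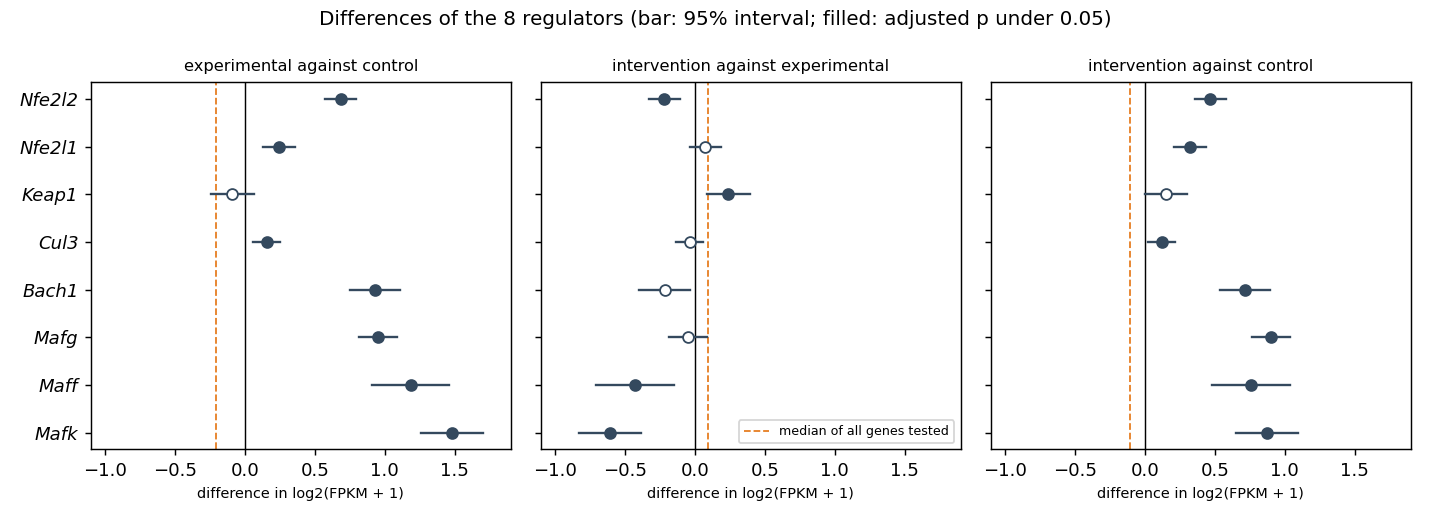
Difference of each regulator in log2(FPKM + 1) (horizontal axes) for the 3 comparisons, with its 95% interval (bar), a filled point where limma's adjusted p was under 0.05 and the median of all genes tested as a dashed line. In experimental against control 7 of 8 points are filled and right of 0, and Mafk is the farthest at 1.48.

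Promoter windows of all 8 genes, 250 bases before to 50 after each RefSeq start on GRCm38.p6 (the assembly called mm10), were searched on both strands for TGACNNNGC, the core of the antioxidant response element to which NRF2 or BACH1 binds with a small MAF, and for the AP-1 site TGANTCA, whose letters can overlap the first. The core was found in 4 of the 8 genes, Nfe2l2 and the 3 small MAFs, and in 13.99% of the 27025 genes of the RefSeq table. The 8 genes have more windows per gene than the table. By window, the core was in 4 of their 14 and in 12.39% of all 32851. The AP-1 letters were found in 0 of the 8 and in 8.97% of genes. Some genes have several listed starts, and Maff holds the core at 1 of its windows. All 4 genes rose in experimental cells, as did Bach1, Nfe2l1 and Cul3, which have no match. Whether the match bears on the rise was not tested. The windows with a match are shown. They lie at chr2:75704614-75704913 (Nfe2l2, minus strand), chr11:120633498-120633797 (Mafg, minus strand), chr15:79346371-79346670 (Maff, plus strand) and chr5:139791286-139791585 (Mafk, plus strand). Capitals mark the match, read 5′ to 3′ along the gene. It is in the gene's own direction in Nfe2l2 and Maff and on the other strand in Mafg and Mafk.
Nfe2l2: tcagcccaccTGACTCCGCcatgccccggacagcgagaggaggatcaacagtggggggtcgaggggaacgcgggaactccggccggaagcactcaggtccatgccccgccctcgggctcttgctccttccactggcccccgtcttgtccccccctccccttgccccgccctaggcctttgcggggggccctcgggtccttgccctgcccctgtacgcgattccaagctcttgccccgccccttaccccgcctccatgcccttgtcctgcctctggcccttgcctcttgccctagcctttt
Mafg: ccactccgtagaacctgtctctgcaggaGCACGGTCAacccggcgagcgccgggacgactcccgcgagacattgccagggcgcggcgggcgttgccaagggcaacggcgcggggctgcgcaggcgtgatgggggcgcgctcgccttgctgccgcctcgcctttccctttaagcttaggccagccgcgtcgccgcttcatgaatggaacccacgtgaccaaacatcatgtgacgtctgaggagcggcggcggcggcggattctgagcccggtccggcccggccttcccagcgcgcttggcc
Maff: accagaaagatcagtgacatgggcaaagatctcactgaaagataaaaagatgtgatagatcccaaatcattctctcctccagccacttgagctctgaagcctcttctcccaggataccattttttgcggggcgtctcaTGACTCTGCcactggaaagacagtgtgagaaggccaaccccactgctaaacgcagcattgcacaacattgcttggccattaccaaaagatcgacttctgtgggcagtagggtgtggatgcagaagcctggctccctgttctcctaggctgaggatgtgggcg
Mafk: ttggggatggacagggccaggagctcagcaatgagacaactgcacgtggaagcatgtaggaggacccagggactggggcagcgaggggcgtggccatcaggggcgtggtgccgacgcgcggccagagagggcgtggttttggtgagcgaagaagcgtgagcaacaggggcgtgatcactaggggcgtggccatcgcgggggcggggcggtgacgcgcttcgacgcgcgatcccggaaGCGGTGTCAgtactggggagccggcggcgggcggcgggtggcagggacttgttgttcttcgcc
The match begins 240 bases before the start in Nfe2l2, 222 in Mafg, 112 in Maff and 13 in Mafk. These are matches of letters, and binding was not measured. Bach1, which rose 2.02 times, has no match in its window, which says only that these letters are not there.

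In mm10 (GENCODE M21) Nfe2l2 spans 75675513 to 75704641 on chromosome 2 and Cul3 80264923 to 80340480 on chromosome 1. Keap1 lies at 21229730 to 21239361 on chromosome 9 and Bach1 at 87698945 to 87733346 on chromosome 16. Nfe2l1 (96817414 to 96829968) and Mafg (120625117 to 120633600) are both on chromosome 11. Mafk is at 139791513 to 139802653 on chromosome 5 and Maff at 79346621 to 79359076 on chromosome 15. All 8 are protein-coding genes.

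The next comparison set the intervention against the experimental group. Mafk, Maff and Nfe2l2 were lower in intervention cells and Keap1 was higher, and the other four did not pass the test. Thus 4 of 8 were called, 1 higher and 3 lower, where 19.5% of all genes were called, 15.9% as higher and 3.60% as lower. With median-ratio scaling the 4 calls were all lower, Bach1 replacing Keap1. Libraries did not overlap for 6 regulators, nor for 42.5% of all genes. The median difference was -0.13 log2 units for the 8 regulators and 0.10 for all genes. The calls depend on which libraries enter: 0 of the 8 were called without experimental replicate 1, without experimental replicate 3 or without intervention replicate 1, and 2 without intervention replicate 3 or without control replicate 1. The 2 called without intervention replicate 3, the library with low Snap25, Mbp and Slc1a2, were Mafk (-0.61, limma adjusted p = 0.0372) and Maff (-0.55, 0.0379). In that fit Nfe2l2 was -0.21 (0.0577) and Keap1 0.21 (0.107). In each of the 3 fits with 0 calls, limma called 1, 4 and 6 of all genes in that order, and counts at an unadjusted p under 0.05 were 3355, 3375 and 3161.

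Mafk fell most, to 13.4, 17.6 and 15.6 FPKM in the intervention libraries, all below the experimental range of 21.3 to 26.0. The log2 difference was -0.61 (SE 0.10, limma adjusted p = 0.0151), and the mean was 0.644 of the experimental mean. Its adjusted p was 0.0570 to 0.0637 in the 3 fits with 0 calls and under 0.05 in the other 15 of 18 alternatives. Maff fell to 8.75, 10.50 and 12.75 FPKM, below the experimental range of 13.01 to 16.61 (log2 difference -0.43, SE 0.12, limma adjusted p = 0.0409). That call held in 8 of 18 alternatives, with adjusted p between 0.0303 and 0.141. Mafg, at 46.9, 48.9 and 49.8 FPKM, overlapped its experimental libraries (log2 difference -0.05, 95% interval -0.19 to 0.09, limma adjusted p = 0.592). The 3 small MAFs together summed to 74.7 ± 4.95 FPKM. Mafg made up 65.0% ± 2.51 and Mafk 20.7% ± 1.88 of that sum, neither overlapping the experimental share (exact permutation p = 0.10 for both, 0.164 adjusted).

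Nfe2l2 fell to 34.1, 37.8 and 35.6 FPKM, without overlap (log2 difference -0.22, SE 0.050, limma adjusted p = 0.0213), or 0.857 of the experimental mean. The call held in 13 of 18 alternatives (adjusted p 0.0159 to 0.0826), and the difference was -0.33 with median-ratio scaling. Bach1 read 12.4, 15.1 and 14.4 FPKM against 16.6, 15.1 and 17.5, so that its highest intervention value nearly met its lowest experimental value. Its log2 difference of -0.22 was as large as that of Nfe2l2 but did not pass (SE 0.080, limma adjusted p = 0.0796), and passed with median-ratio scaling (-0.33, adjusted p = 0.0447). The Nfe2l2 to Bach1 ratio was 2.58 ± 0.152 in intervention libraries, overlapping the experimental ratios (exact permutation p = 1).

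Keap1 read 19.8, 18.6 and 20.5 FPKM in intervention libraries, each above the highest experimental value of 18.4 (log2 difference 0.24, SE 0.069, limma adjusted p = 0.0391). This call held in 7 of 18 alternatives and was lost with median-ratio scaling, when the difference was 0.13 (adjusted p = 0.187). The Nfe2l2 to Keap1 ratio came to 1.83 ± 0.175, below the experimental and above the control ratios without overlap (exact permutation p = 0.10 for each, 0.164 adjusted). Cul3 read 38.9, 39.7 and 40.0 FPKM, overlapping the experimental libraries (log2 difference -0.04, 95% interval -0.13 to 0.06, limma adjusted p = 0.544). Nfe2l1 read 81.7, 83.8 and 83.1 FPKM, a log2 difference of 0.08 (95% interval -0.04 to 0.19, limma adjusted p = 0.301), which turned to -0.041 with median-ratio scaling (adjusted p = 0.638). The Nfe2l2 to Nfe2l1 ratio was 0.432 ± 0.0170, below the experimental ratios without overlap (exact permutation p = 0.10, 0.164 adjusted).

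Against the control group, the intervention group had more RNA of 7 of the 8 regulators, where 65.3% of all genes were called and 24.1% were called higher. Libraries did not overlap for any of the 8, nor for 68.7% of all genes. The median difference was 0.59 log2 units for the regulators and -0.10 for all genes. This comparison shares libraries with both others. Mafg differed by 0.90 (SE 0.062, limma adjusted p = 1.34e-06), or 1.901 times the control mean. Mafk stood at 1.95 times the control mean (log2 difference 0.87, SE 0.10, limma adjusted p = 3.45e-05) and Maff at 1.82 times (0.76, SE 0.12, limma adjusted p = 0.000398). Bach1 was at 1.72 times (0.71, SE 0.080, limma adjusted p = 3.16e-05), Nfe2l2 at 1.40 times (0.47, SE 0.050, limma adjusted p = 2.19e-05) and Nfe2l1 at 1.251 times (0.32, SE 0.051, limma adjusted p = 0.000329). For these 6 genes no intervention library overlapped a control library, and the calls held in all 18 alternatives. Without intervention replicate 3 their differences were 0.32 to 0.88. Cul3 was 0.12 higher (SE 0.043, limma adjusted p = 0.0319), a call lost in 7 of 18 alternatives, with 0.25 under median-ratio scaling and 0.04 under scaling to TPM. Keap1 was 0.15 higher without passing (SE 0.069, limma adjusted p = 0.0773), although its libraries did not overlap, and passed in 4 alternatives, among them median-ratio scaling (0.28, adjusted p = 0.00266).

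**Figure D3:**
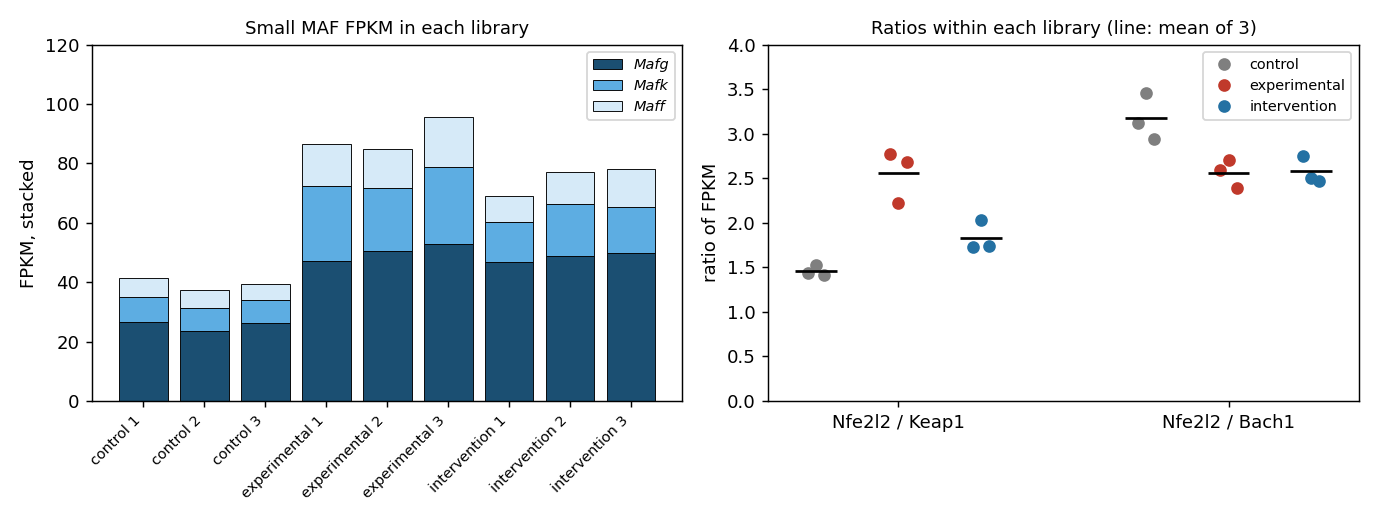
Left, FPKM of Mafg, Mafk and Maff stacked for each library, summing to 37.4 to 41.3 in controls, 84.8 to 95.5 in experimental and 69.0 to 78.1 in intervention libraries. Right, the ratio of Nfe2l2 to Keap1 and to Bach1 FPKM within each library (points) with group means (lines), where the Keap1 ratios of the 3 groups do not overlap.

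Over the 9 libraries, pairwise Pearson correlations in log2(FPKM + 1) among Nfe2l2, Bach1, Mafg, Maff and Mafk ran from 0.910 (Mafg and Mafk) to 0.987 (Nfe2l2 and Mafk). Those of Cul3 with these genes ran from 0.864 (Maff) to 0.940 (Nfe2l2), and those of Nfe2l1 from 0.752 (Mafk) to 0.948 (Mafg). Keap1 had correlations of -0.30 to 0.32 with the other regulators. The points share 3 groups of libraries, so these values describe mainly the group means. With predicted genes left out, the tested genes most like Nfe2l2 were Hsp90aa1 (r = 0.998), Serpinh1 (0.997) and Hsph1 (0.997), genes of protein chaperones. Among the genes most like Mafk were Gcnt2 and Kcnj14 (0.997 each). Genes most like Bach1 were Bend3, Ccdc186 and Glis1 (all 0.997). Gcnt2, Kcnj14 and Glis1 were low, averaging 0.57, 0.0933 and 0.287 FPKM in control and 2.73, 1.24 and 1.41 in experimental libraries. Mafg was most like Snx30 (0.998), Trim46 (0.997) and Pwp2 (0.995), and Maff like Vegfa (0.992), Irx2 (0.990) and Pim3 (0.988). For Nfe2l1 they were Zfp740 (0.988), Pdcd11 (0.987) and Zfp970 (0.983), and for Cul3 Myd88 (0.984), Golt1b (0.979) and Patl1 (0.973). The nearest to Keap1 were Lgmn (0.964), Lpar1 (0.948) and Ccnf (0.946), and that with Lgmn fell to 0.663 after quantile normalization.

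Several relatives of these factors were low: Nfe2, Nfe2l3, Bach2, Maf, Mafa and Nrl did not pass the filter.

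Genes of proteins that set the turnover of NRF2, NFE2L1 and BACH1 were split: the RNA of 10 of 29 tested was higher and that of 12 lower in experimental than in control cells, where 23.5% of all genes were higher and 50.5% lower (median -0.05 against -0.21 for all genes), and 15 higher and 8 lower with median-ratio scaling or 13 and 6 with quantile normalization. Sqstm1 encodes p62, which sequesters KEAP1 and carries it to autophagy. It rose from 142 ± 4.42 to 1145 ± 51.9 FPKM (log2 difference 3.001, SE 0.074, limma adjusted p = 3.61e-09). Vcp, the segregase that pulls NFE2L1 out of the endoplasmic reticulum, rose 1.78 times (limma adjusted p = 1.25e-07), and Ddi2, the protease that then cleaves it, 1.71 times (limma adjusted p = 9.84e-06). Ngly1, which strips sugars from NFE2L1, went the other way, from 2.27 ± 0.166 to 0.947 ± 0.0764 FPKM (limma adjusted p = 1.41e-05). Dcaf11, the receptor of a ligase that degrades NRF2 without KEAP1, fell from 4.22 ± 0.225 to 1.65 ± 0.0833 FPKM (limma adjusted p = 1.49e-06), and Trim21, which acts on p62, from 2.34 ± 0.281 to 1.25 ± 0.0757 (limma adjusted p = 0.000116). In intervention against experimental cells 4 of the 29 were higher and 1 lower, near the 15.9% and 3.60% of all genes. With median-ratio scaling 1 was higher and 4 lower. Of 10 coactivators and repressors, 0 were higher and 4 lower in experimental cells (3 higher and 2 lower with median-ratio scaling), a share called lower below the 50.5% of all genes, with the retinoic acid receptor Rara at 0.673 of its control mean, the chromatin remodeller Smarca4 at 0.712 and the arginine methyltransferase Carm1 at 0.791. The Carm1 call was lost with median-ratio scaling (adjusted p = 0.155).

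Targets of NRF2 and BACH1 were higher in 22 of 26 cases and lower in 2 in experimental against control cells. Of all genes, 23.5% were higher and 50.5% lower. The median of the target list was 1.54 log2 units. This list was drawn up with results of these libraries known and is no independent evidence of direction. Hmox1, which breaks down heme, differed by 6.61 log2 units (SE 0.12, limma adjusted p = 4.35e-10), against 0.68 for Nfe2l2 and 0.93 for Bach1. Gclm, of glutathione synthesis, differed by 3.46 (SE 0.053, limma adjusted p = 2.99e-10), Pgd, of the pentose phosphate pathway, by 2.31 (SE 0.041, limma adjusted p = 4.02e-10) and Nqo1, a quinone reductase, by 2.83 (limma adjusted p = 1.14e-09). The 2 that fell were Slc7a11, the cystine importer subunit (-3.11, SE 0.093, limma adjusted p = 1.20e-08), and Cbr1, a carbonyl reductase (-0.45, SE 0.089, limma adjusted p = 0.00104). Of the same 26 genes, 7 were higher and 5 lower in intervention than in experimental cells (2 and 6 with median-ratio scaling), where 15.9% of all genes were called higher and 3.60% lower, with a median of 0.06 log2 units. Slc7a11 was 3.41 higher there (SE 0.093, limma adjusted p = 8.37e-08), in a comparison in which Nfe2l2 was 0.22 lower. Hmox1 fell by 0.59 there (SE 0.12, limma adjusted p = 0.0170), a call lost in 5 of 18 alternatives. In intervention against control 25 of 26 targets were higher and 0 lower (24 and 1 with scaling to TPM). Of all genes, 24.1% were higher and 41.1% lower in that comparison.

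Proteasome subunit genes, which NFE2L1 raises, were higher in 26 of 27 cases and lower in 0 in experimental against control cells. Of all genes, 23.5% were higher and 50.5% lower. The median of the proteasome list was 0.56 log2 units. This list too was chosen with results of these libraries known and is no independent evidence of direction. Psmd11 (2.32 times), Psmc2 (2.33 times) and Psmc6 (2.06 times) had the smallest adjusted p (limma, at most 1.27e-07), while Nfe2l1 itself was 1.19 times its control level. In intervention against experimental cells 5 of 27 were higher and 0 lower, near the 15.9% of all genes called higher, and 2 were higher with median-ratio scaling and 3 with quantile normalization or scaling to TPM. In intervention against control all 27 were higher, where 24.1% of all genes were higher.

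**Figure D4:**
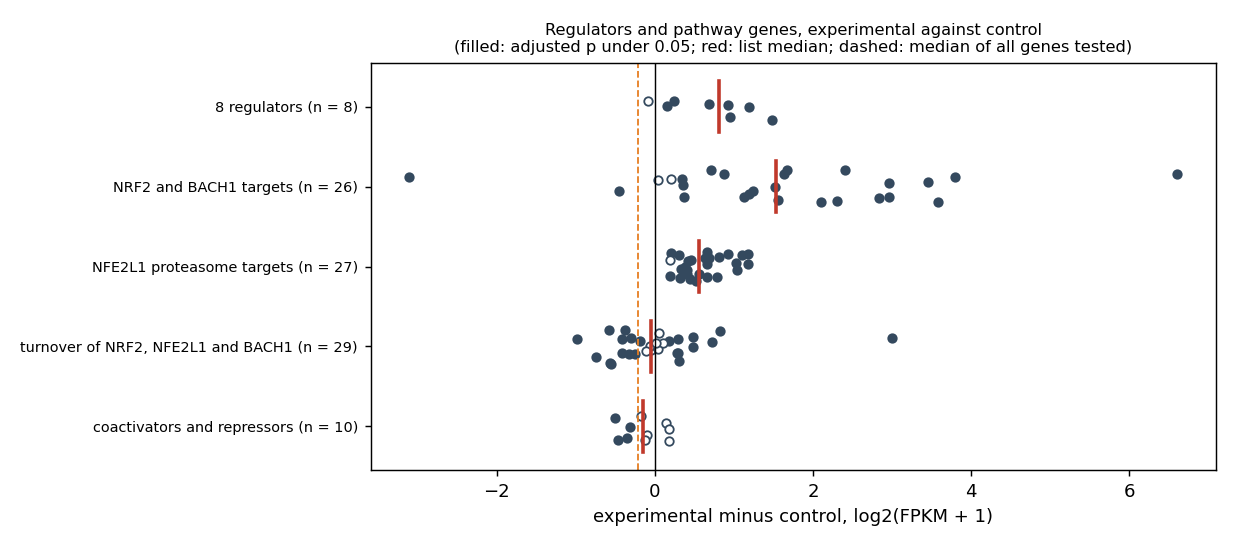
Experimental minus control difference in log2(FPKM + 1) (horizontal axis) of the 8 regulators and of each tested gene in 4 lists (rows), filled where limma's adjusted p was under 0.05, with the list median in red and the median of all genes tested dashed. The medians are 0.81 for the regulators, 1.54 for NRF2 and BACH1 targets, 0.56 for proteasome genes, -0.05 for turnover proteins and -0.15 for coactivators and repressors.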

How the data were processed

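Per the labels' protocols, HT22 RNA was extracted by RNeasy (Qiagen) and the 9 libraries were built with a SMARTer mRNA-Seq kit. The design text names an Illumina NovaSeq sequencer. The authors deposited FPKM with 2 decimals for 29756 entries. The submitters' processing notes name mm10. Which aligner, counter, annotation and strand setting were used is not given in the sources used here. Depth is unknown. Genes shorter than 200 nt had 8158 nonzero values, and 1313 of these (16.1%) were smaller than 1 read in 200000000 would give. Whole reads could therefore not be recovered, and count tests were left aside. In 118 entries the symbol is repeated, and it was assigned to the entry with the larger mean.

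Groups came from the sample titles. FPKM was transformed to log2(FPKM + 1), and the 11974 entries with at least 1 FPKM in at least 3 libraries were tested in R 4.3.3 by limma 3.58.1 (eBayes with trend), all 9 libraries in 1 fit, without covariates, 2-sided, with Benjamini-Hochberg adjustment over all genes in a comparison. The procedure was tested on simulated data. Ratios and shares were compared with 2-sided exact permutation tests. Alternatives were a pseudocount of 0.1, no filter, a mean of at least 5 FPKM, median-ratio, quantile and TPM scaling, no trend, 2-group fits, a replicate block and leaving out each library. Named genes were the 8 regulators, up to 3 genes per pathway list and direction with the smallest adjusted p in experimental against control, the 3 genes best correlated with each regulator, and Hmox1, Nqo1, Gclm, Slc7a11, Sqstm1, Actb and Gapdh. Some genes under this rule or in the lists are not reported here. Members and lists were chosen with earlier results of these data known. Promoters are from RefSeq (GRCm38.p6), where 8 of 8 genes were found by symbol, and positions from GENCODE M21. The Cul3 window lies outside the GENCODE span of the gene. The end of that window, and of an Nfe2l1 window, was in no GENCODE transcript of the gene.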

Additional observations from a re-analysis of the deposited data

How the results depend on the processing

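The 7 regulators called in experimental against control stayed at 6 to 8 and those in intervention against control at 6 to 8 under all 18 alternatives. The 4 called in intervention against experimental became 1 with no filter on low values, and 2 with scaling to TPM, with the replicate block and with only the 2 groups compared, and 0 to 4 when 1 library was left out. All genes called there went from 2337 to 358 with no filter, 1513 with median-ratio scaling (567 higher, 946 lower), 1038 with quantile normalization (451 higher, 587 lower) and 1268 with the replicate block, and 1 to 2571 when 1 library was left out. A mean FPKM of at least 5, which tests fewer genes, gave 5702 in experimental and 5129 in intervention against control. Median-ratio scaling split the called genes into 4380 higher and 4357 lower in experimental and 3912 and 3876 in intervention against control, as against 2809 and 6047 and 2890 and 4926. The Keap1 sign in experimental against control turned to 0.15 with median-ratio scaling and 0.042 with quantile normalization, and the Nfe2l1 sign in intervention against experimental to -0.041 with median-ratio scaling. The cause of these changes was not tested. Adding 0.1 to each FPKM moved the ratios and shares by less than 1 SD. Median-ratio scaling also moved the differences of Cul3 and Mafg in intervention against experimental, neither called, to -0.15 and -0.16.

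Same-numbered libraries of 2 groups deviated from their group means with correlations of -0.18 to 0.11, over 0.1 in 2 of 9 cases. No pairing by number was seen, but 3 libraries per group cannot exclude one. Scalings of the pathway lists and the correlations were added after seeing the data. The deposited values hold no read numbers, so precision rests on 3 libraries per group.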
